A study of Mus musculus with 6 samples.

Results

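The genes described here are the machinery of the G1/S transition and of DNA replication: 33 genes chosen by name, of which 32 were measured, among 18193 genes with a probe set of their own on the array. Each gene was read on 1 probe set, the one with the highest mean signal over all arrays among those that the array's annotation gives to that gene alone. Chaf1a, a chromatin assembly gene, had no such probe set and is not analysed here. The cells were LSK cells of mouse bone marrow, which lack lineage markers, carry Sca-1 and c-Kit and include the blood stem cells and the multipotent progenitors. The comparison asks how the transcripts of these cells differ when Ercc1 is deficient. Ercc1 encodes a subunit of the nuclease that cuts damaged strands in nucleotide excision repair and in the repair of interstrand crosslinks.

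The 3 Ercc1-deficient samples (-/d) came from mice with 1 knockout allele and 1 truncated allele of Ercc1. The 3 Ercc1-proficient samples came from litter mates, of which those of litters 1 and 2 were +/+ and that of litter 3 was +/d, so that this control carried the truncated allele too. All mice were F1 offspring of a C57BL/6 x FVB/n cross. Litter 1 was 22 weeks old and litters 2 and 3 were 20 weeks old at harvest. Marrow was depleted of lineage-positive cells and sorted by flow cytometry, and the RNA was amplified linearly in 2 rounds before it was hybridised to Affymetrix Mouse Genome 430 2.0 arrays, 1 array per sample. The labels do not say whether a sample was 1 mouse or a pool, so the p-values reflect the variation among these 6 samples only.

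DNA replication is prepared and started in ordered steps. In G1, the origin recognition complex, Cdc6 and Cdt1 load the ring of MCM subunits onto DNA. At the start of S phase, Cdc45 and the GINS complex join the ring and turn it into the active helicase, and polymerases, primase, the PCNA clamp and its loader follow it. Nucleotides come from ribonucleotide reductase and its partners. E2F factors and cyclin E control entry into S phase, and many replication genes are E2F targets. Most long-term blood stem cells are quiescent, whereas the multipotent progenitors of the LSK compartment cycle more often. In bulk samples, a change in the number of cycling cells and a change in RNA per cell cannot be told apart.

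Promoters of a few members are shown because the E2F words in them mark the textbook link between the G1/S regulators and the replication genes. The windows are RefSeq's, in assembly GRCm38.p6, and run from 250 bases before to 50 bases after the gene's start. The E2F words were TTTCCCGC, TTTCGCGC, TTTGCCGC and TTTGGCGC, searched on both strands, and matches may overlap. At least 1 word lay in the windows of 11 of the 26 measured members with an entry (42.3%), against 704 of 27025 genes (2.60%). The members with a word were Cdc6, Cdt1, Gins3, Mcm3, Mcm5, Mcm6, Mcm7, Pola1, Pold1, Rfc3 and Uhrf1. CCAAT, searched on both strands, lay in those of 16 of the 26 members (61.5%), against 41.1% of genes. Ccne2, Gins1, Gins2, Gins4, Mcm4 and Pole had no entry. A match says only that these letters are in the window, and the lack of one says only that they are not. Capitals mark the E2F words. Mcm5 (chr8:75109259-75109558, plus strand) holds 2 matches that overlap, Mcm6 (chr1:128359656-128359955, minus strand) holds 3, and Cdt1 (chr8:122567765-122568064, plus strand) and 1 window of Uhrf1 (chr17:56304063-56304362, plus strand) hold 1 each. Rrm2 (chr12:24708004-24708303, plus strand) and Ccne1 (chr7:38107441-38107740, minus strand) hold none. These 2 members had the largest fitted differences above 0 between the genotypes in log2(signal + 30), but neither passed the genotype test given below. The difference of Ccne1 rests on an array at the floor.
Mcm5: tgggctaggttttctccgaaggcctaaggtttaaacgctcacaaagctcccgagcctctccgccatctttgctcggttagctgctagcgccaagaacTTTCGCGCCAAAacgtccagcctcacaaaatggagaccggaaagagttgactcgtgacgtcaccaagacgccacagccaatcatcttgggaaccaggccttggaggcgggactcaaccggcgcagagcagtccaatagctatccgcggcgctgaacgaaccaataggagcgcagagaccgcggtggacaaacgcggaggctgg
Mcm6: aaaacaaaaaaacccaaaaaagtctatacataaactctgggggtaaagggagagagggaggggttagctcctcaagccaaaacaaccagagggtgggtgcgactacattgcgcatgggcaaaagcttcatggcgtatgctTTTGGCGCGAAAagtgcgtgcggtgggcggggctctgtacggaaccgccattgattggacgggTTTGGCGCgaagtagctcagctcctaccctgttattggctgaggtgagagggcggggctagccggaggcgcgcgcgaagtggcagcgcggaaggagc
Cdt1: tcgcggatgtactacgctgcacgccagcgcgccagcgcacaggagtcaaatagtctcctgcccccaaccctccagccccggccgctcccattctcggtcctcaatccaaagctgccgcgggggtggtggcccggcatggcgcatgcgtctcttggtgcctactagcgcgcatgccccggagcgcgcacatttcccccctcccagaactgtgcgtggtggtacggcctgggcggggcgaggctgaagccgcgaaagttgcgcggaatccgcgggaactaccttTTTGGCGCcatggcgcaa
Uhrf1: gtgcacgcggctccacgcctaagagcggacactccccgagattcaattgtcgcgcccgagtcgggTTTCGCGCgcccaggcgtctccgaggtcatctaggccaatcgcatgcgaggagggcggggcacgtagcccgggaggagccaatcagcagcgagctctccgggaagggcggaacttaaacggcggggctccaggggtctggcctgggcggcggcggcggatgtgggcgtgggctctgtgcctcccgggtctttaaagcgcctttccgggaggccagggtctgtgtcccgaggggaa
Rrm2: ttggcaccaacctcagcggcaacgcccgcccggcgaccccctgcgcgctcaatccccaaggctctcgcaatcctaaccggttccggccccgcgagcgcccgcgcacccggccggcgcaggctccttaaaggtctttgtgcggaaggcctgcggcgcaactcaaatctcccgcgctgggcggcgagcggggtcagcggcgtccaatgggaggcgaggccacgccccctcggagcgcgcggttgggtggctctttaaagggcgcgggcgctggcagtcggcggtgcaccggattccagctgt
Ccne1: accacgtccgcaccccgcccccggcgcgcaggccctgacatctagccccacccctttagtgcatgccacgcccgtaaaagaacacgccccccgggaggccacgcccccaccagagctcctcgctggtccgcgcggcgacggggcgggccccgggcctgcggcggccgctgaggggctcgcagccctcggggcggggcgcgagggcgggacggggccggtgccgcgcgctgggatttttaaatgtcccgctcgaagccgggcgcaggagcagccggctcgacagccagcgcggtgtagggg

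Signals are on the linear scale of the MAS5 algorithm, and no signal lies below a floor of 30. Between 52.3% and 58.6% of the 45037 probe sets were at that floor on each array. Ercc1 itself had signals of 79.9, 34.5 and 44.9 in Ercc1-deficient cells of litters 1, 2 and 3, against 128, 244 and 176 in their Ercc1-proficient litter mates, and the groups did not overlap. Differences were fitted on log2(signal + 30) with litter as a block in limma, over the 22519 probe sets in the brighter part of the array (mean log2 no lower than the median). Adding 30 shrinks the differences of weak genes. Ercc1 differed by -1.36 (SE 0.27; limma, adjusted p = 0.0159) in that fit. Without the litter block its adjusted p was 0.9998. The labels do not say which bases of Ercc1 are altered, so whether this probe set lies there is not known, which limits it as a check of the genotype. Of all probe sets tested, 177 passed an adjusted p of 0.05 (0.786%), 66 higher and 111 lower in Ercc1-deficient cells. With arrays centred on their medians, 179 were higher and 133 lower. The count was 0 without the litter block (583 at an unadjusted p under 0.05), 0 without litter 1, 0 without litter 2 and 5 without litter 3. Markers of the sorted compartment were measured on every array: Kit had signals of 125, 95.8 and 92.2 in Ercc1-deficient cells, against 231, 123 and 151 in Ercc1-proficient cells, and Ly6a, which encodes Sca-1, had no probe set of its own.

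None of the 32 replication genes passed the test for genotype in either direction, where 0.786% of all probe sets did. The smallest adjusted p was 0.353 (limma). At an unadjusted p under 0.05 there were 3 members, Rrm2, Ccne1 and Cdt1 (11.4% of all probe sets), and 0 without the litter block (2.59% of all probe sets). By sign alone, 23 members had a log2 difference above 0 and 9 below 0, where 46% of all probe sets were above 0. The median log2 difference of the members was 0.12, beside -0.03 over all probe sets tested. Within litters the median was 0.36 in litter 1, 0.01 in litter 2 and 0.08 in litter 3, and 27, 16 and 19 of the 32 members had the higher signal in the Ercc1-deficient sample. The litter 2 median turned to -0.02 under quantile normalization. The median was thus furthest from 0 in litter 1, a single pair of arrays.

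The error of these differences bounds what could have been seen. The 95% confidence intervals reached a median of 0.48 to either side of the estimate on the log2 scale. Of the 32 intervals, 29 included 0, and 29 lay wholly between a log2 difference of -1 and 1. Pole, Rrm2 and Ccne1 were the exceptions to the second count, with intervals that reached -1.02, 1.22 and 1.26. The members whose interval left out 0 were Cdt1, Rrm2 and Ccne1. For the 29 members within -1 and 1, the interval of the fit with the litter block leaves out a 2-fold difference on this scale. Tyms, near the floor, is among them, and adding 30 shrinks its differences. Intervals were not made without the block. There the unadjusted p was 0.323 for Cdt1, 0.163 for Rrm2 and 0.358 for Ccne1, against 0.0344, 0.0263 and 0.0259 with it (limma). Smaller differences were not resolved with 3 arrays per group.

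**Figure D1:**
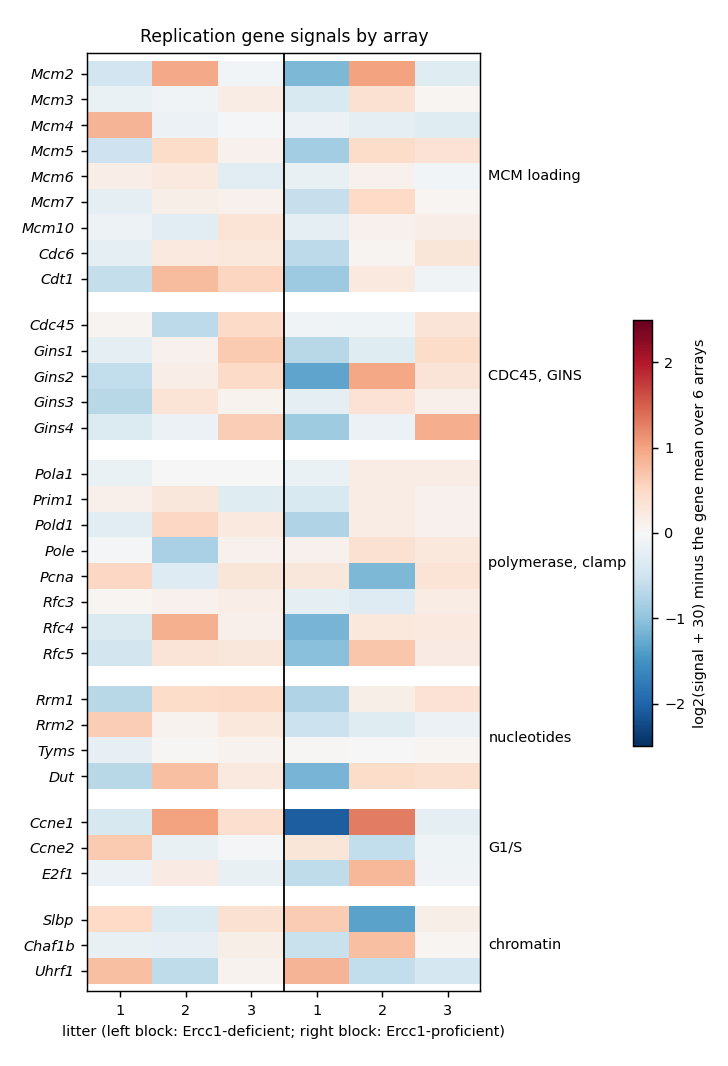
Signal of each of the 32 measured replication genes on the 6 arrays, as log2(signal + 30) relative to the gene's mean over the arrays, with the 3 Ercc1-deficient arrays left of the 3 Ercc1-proficient arrays and genes grouped by role down the page. For 27 of the 32 genes the litter 1 difference was larger in size than the genotype difference. In 19 genes both litter 1 arrays lie above or below all other arrays. In the litter 1 test 14 genes passed as lower and 3 as higher.

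Of the members, 7 had the higher signal in the Ercc1-deficient sample of all 3 litters, namely Mcm4, Cdt1, Gins1, Pold1, Rrm1, Rrm2 and Ccne2, where 11.3% of all probe sets did so. Gins3 and Pole had the lower signal in all 3 litters, where 17% of all probe sets did. Rrm2 was the 1 member whose groups did not overlap (2.3% of all probe sets were apart in that direction), and 0 members were apart in the other direction (4.89% of all probe sets). Some members have more than 1 probe set. In 15 of the 22 members with another tested probe set, every such probe set had the same sign as the one used. In the paragraphs that follow, 3 values are always those of litters 1, 2 and 3 in that order.

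The MCM ring and the factors that load it gave 9 measured members, and none passed the test. Mcm2, a ring subunit, had signals of 390.3, 1113 and 534 in Ercc1-deficient cells, against 241, 1156 and 449 in Ercc1-proficient cells. The groups overlapped fully, and both litter 1 samples lay below the other 4. Its log2 difference was 0.27 (SE 0.22; limma, adjusted p = 0.692). Mcm4, another subunit, had 5350.4, 2659 and 2871 in Ercc1-deficient cells, against 2662, 2513 and 2395 in Ercc1-proficient cells. The Ercc1-deficient sample of litter 1 stood far above the other 5, which lay between 2395 and 2871, and the groups overlapped because the Ercc1-proficient sample of that litter, at 2662, lay just above the Ercc1-deficient sample of litter 2, at 2659. The log2 difference of Mcm4 was 0.45 (SE 0.25; limma, adjusted p = 0.525), made of 0.999, 0.08 and 0.26 by litter.

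Mcm5 gave signals of 1243, 2462 and 1913 in Ercc1-deficient cells and 961, 2474 and 2284 in Ercc1-proficient cells. Again both litter 1 samples were the lowest, and the genotypes overlapped. The fitted log2 difference of Mcm5 was 0.03 (SE 0.23; limma, adjusted p = 0.965), and it turned to -0.05 under quantile normalization and -0.09 over the mean of its probe sets. Mcm7, also of the ring, had 3275, 4264 and 4148 in Ercc1-deficient cells, against 2546, 5428 and 3962 in Ercc1-proficient cells. The groups overlapped, with the Ercc1-proficient values spread more widely. Its log2 difference was 0.03 (SE 0.25; limma, adjusted p = 0.976), and it turned to -0.13 under quantile normalization. Mcm3 and Mcm6, which complete the ring, differed by -0.04 and 0.09 on the log2 scale. Mcm10, which acts when the helicase is started, differed by -0.03.

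Cdt1, which carries the MCM ring to the origin and is destroyed once S phase begins, had signals of 383, 1040.3 and 873 in Ercc1-deficient cells, against 302, 705 and 556 in Ercc1-proficient cells. The Ercc1-deficient sample was the higher one in every litter, by log2 differences of 0.31, 0.54 and 0.62, although the groups overlapped because litter 1 was low in both genotypes. The fit gave 0.49 (SE 0.22; limma, adjusted p = 0.384), with a 95% interval of 0.04 to 0.95. A second Cdt1 probe set went the other way, with a log2 difference of -0.24, so the direction rests on the probe set used. Cdc6, the ATPase that recruits Cdt1 and the ring, had 234, 335 and 341 in Ercc1-deficient cells and 166, 292 and 350.5 in Ercc1-proficient cells. Its groups overlapped across nearly their whole range, and its log2 difference was 0.19 (SE 0.22; limma, adjusted p = 0.77).

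The helicase activators, Cdc45 and the 4 GINS subunits, gave no call for genotype. Gins1 had signals of 525, 668 and 1000.1 in Ercc1-deficient cells, against 372, 496 and 868 in Ercc1-proficient cells. In every litter the Ercc1-deficient sample was higher, by log2 differences of 0.47, 0.41 and 0.20, but the spread between litters was wider than that and the groups overlapped. The fit gave 0.36 (SE 0.22; limma, adjusted p = 0.567), and a second probe set, with weak signals of 30 to 66.9, had a log2 difference of 0.38. Gins2 had signals of 151, 282 and 359 in Ercc1-deficient cells, against 82.1, 510.2 and 319 in Ercc1-proficient cells. The litters went opposite ways, by 0.69, -0.79 and 0.15, which left 0.02 (SE 0.26; limma, adjusted p = 0.984) and -0.03 with a pseudocount of 100.

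Gins3 was a weak probe set, with 43.6, 121 and 97.8 in Ercc1-deficient cells and 72.4, 124 and 102 in Ercc1-proficient cells. The Ercc1-deficient sample was the lower one in all 3 litters, by a clear margin in litter 1 alone, and the fit gave -0.18 (SE 0.24; limma, adjusted p = 0.796). Gins4 had 239, 277 and 493 in Ercc1-deficient cells, against 155, 278 and 609 in Ercc1-proficient cells. Values differed more between litters than within them, and the fit gave 0.08 (SE 0.23; limma, adjusted p = 0.919). Cdc45, whose signals lay between 59.1 and 166 in Ercc1-deficient cells and between 100.2 and 147 in Ercc1-proficient cells, differed by -0.08.

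Among the polymerases and primase, the leading and lagging strand enzymes had differences of opposite sign on the probe sets used, neither of which passed. Pold1, the catalytic subunit of the lagging strand polymerase delta, had signals of 302, 545 and 445 in Ercc1-deficient cells, against 211, 426 and 404 in Ercc1-proficient cells. Litter mates differed by 0.46, 0.33 and 0.13, with the Ercc1-deficient sample higher each time, while the groups overlapped. The fit gave 0.31 (SE 0.22; limma, adjusted p = 0.635), and a second Pold1 probe set had a log2 difference of -0.33, so the direction rests on the probe set used. Pole, the catalytic subunit of the leading strand polymerase epsilon, had 155, 77.5 and 175 in Ercc1-deficient cells, against 175, 215 and 196 in Ercc1-proficient cells. The low value of the Ercc1-deficient sample of litter 2 made most of the difference, -0.14, -1.19 and -0.14 by litter, and the highest Ercc1-deficient signal just exceeded the lowest Ercc1-proficient one. The fit gave -0.49 (SE 0.25; limma, adjusted p = 0.479), the largest negative difference among the members. Pola1 and Prim1, of the polymerase alpha and primase complex that lays the primers, differed by -0.13 and 0.06.

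Pcna, the sliding clamp that holds polymerases on DNA, had signals of 1508, 831 and 1291 in Ercc1-deficient cells, against 1278, 464 and 1327 in Ercc1-proficient cells. The litter 2 samples were low in both genotypes, and the groups overlapped. Its log2 differences were 0.23, 0.80 and -0.04 by litter, and the fit gave 0.33 (SE 0.23; limma, adjusted p = 0.63). Rfc4, a subunit of the clamp loader, had 762, 1858 and 1078 in Ercc1-deficient cells, against 426, 1195 and 1176 in Ercc1-proficient cells. The Ercc1-deficient sample was higher in litters 1 and 2 and slightly lower in litter 3. The fit gave 0.43 (SE 0.23; limma, adjusted p = 0.508), and a second probe set had a log2 difference of 0.27.

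Rfc5, another loader subunit, had signals of 309.9, 552 and 538 in Ercc1-deficient cells and 195, 718 and 505 in Ercc1-proficient cells. Its groups overlapped, its litters disagreed in sign, and the fit gave 0.11 (SE 0.23; limma, adjusted p = 0.893). Rfc3 differed by 0.23 on the log2 scale, with signals from 100.4 to 111 in Ercc1-deficient cells and from 70.9 to 112 in Ercc1-proficient cells. The 4 clamp and loader genes were all above 0, and their median was 0.28, with litter medians of 0.44, 0.53 and -0.02. The litter 3 median turned to 0.03 with arrays centred on their medians.

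Nucleotide supply held the 1 member of 32 whose groups did not overlap, where 2.3% of all probe sets were apart in that direction. Rrm2, the small subunit of ribonucleotide reductase, which is made in S phase and limits the supply of deoxyribonucleotides, had signals of 12181, 8525 and 9627 in Ercc1-deficient cells, against 5476, 6468 and 7216 in Ercc1-proficient cells. Every Ercc1-deficient value lay above every Ercc1-proficient value. The means were 10111 ± 1876 in Ercc1-deficient cells and 6387 ± 873 in Ercc1-proficient cells (SD, n = 3 each). The ratios within litters were 2.22, 1.32 and 1.33, so litter 1 carried the greatest difference. The fit gave 0.65 (SE 0.27; limma, adjusted p = 0.356) with a 95% interval of 0.08 to 1.22, which did not pass over all probe sets. The log2 difference was 0.41 without litter 1 and 0.40 under quantile normalization. The other 2 Rrm2 probe sets had the same sign, with 0.27 and 0.39, but their groups overlapped. The separation thus rests on the probe set used, whose suffix x_at marks sequence shared with other transcripts.

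Rrm1, the large subunit of the same enzyme, had signals of 503, 1166 and 1179 in Ercc1-deficient cells, against 482, 935 and 1087 in Ercc1-proficient cells. Within each litter the Ercc1-deficient sample was slightly higher, and both litter 1 samples were far below the other 4. The fit gave 0.16 (SE 0.22; limma, adjusted p = 0.809). Dut, which removes dUTP so that uracil is not built into DNA, had 1661, 4617 and 3228 in Ercc1-deficient cells, against 1199, 3732 and 3573 in Ercc1-proficient cells. Both litter 1 samples were again the lowest, the groups overlapped, and the fit gave 0.21 (SE 0.24; limma, adjusted p = 0.769). Tyms, thymidylate synthase, was near the floor throughout, from 30 to 44.1 in Ercc1-deficient cells and from 39.6 to 41.3 in Ercc1-proficient cells, so its level was not resolved.

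The G1/S regulators were 3 genes, Ccne1, Ccne2 and E2f1. Ccne1, a cyclin E that activates Cdk2 at the start of S phase, had signals of 158, 469.9 and 303 in Ercc1-deficient cells, against 30, 572 and 184 in Ercc1-proficient cells. The Ercc1-proficient sample of litter 1 was at the floor, the groups overlapped, and the litters differed in sign, by 1.65, -0.27 and 0.64. The fit gave 0.67 (SE 0.28; limma, adjusted p = 0.353), with a 95% interval of 0.09 to 1.26. Because of the floor value, this size depends on the constant added before the log: it was 0.42 with 100 and 0.83 with 10 in place of 30. Without litter 1 the log2 difference was 0.19. Ccne2, the other cyclin E, had 359, 188 and 209 in Ercc1-deficient cells, against 278, 133 and 202 in Ercc1-proficient cells. Each Ercc1-deficient sample was above its litter mate, by the least in litter 3, the groups overlapped, and the fit gave 0.27 (SE 0.23; limma, adjusted p = 0.696). E2f1, the founding E2F activator, differed by -0.08, with signals from 84.3 to 122 in Ercc1-deficient cells and from 54.8 to 203 in Ercc1-proficient cells.

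Histone supply and chromatin replication were read through Slbp, Chaf1b and Uhrf1. Slbp, which binds the stem-loop of replication-dependent histone mRNAs, had signals of 1415, 780.3 and 1311 in Ercc1-deficient cells, against 1569, 373 and 1104 in Ercc1-proficient cells. Litter 2 was low in both genotypes and held most of the difference, -0.15, 1.01 and 0.24 by litter, and the fit gave 0.37 (SE 0.24; limma, adjusted p = 0.606). Uhrf1, which recruits the maintenance DNA methyltransferase to newly copied DNA, had 3740.0, 1419 and 2369 in Ercc1-deficient cells, against 4040.1, 1429 and 1638 in Ercc1-proficient cells. Both litter 1 samples were the highest and the genotypes overlapped. The fit gave 0.13 (SE 0.24; limma, adjusted p = 0.861), and -0.08 under quantile normalization. Chaf1b, a subunit of chromatin assembly factor 1, differed by -0.15.

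**Figure D2:**
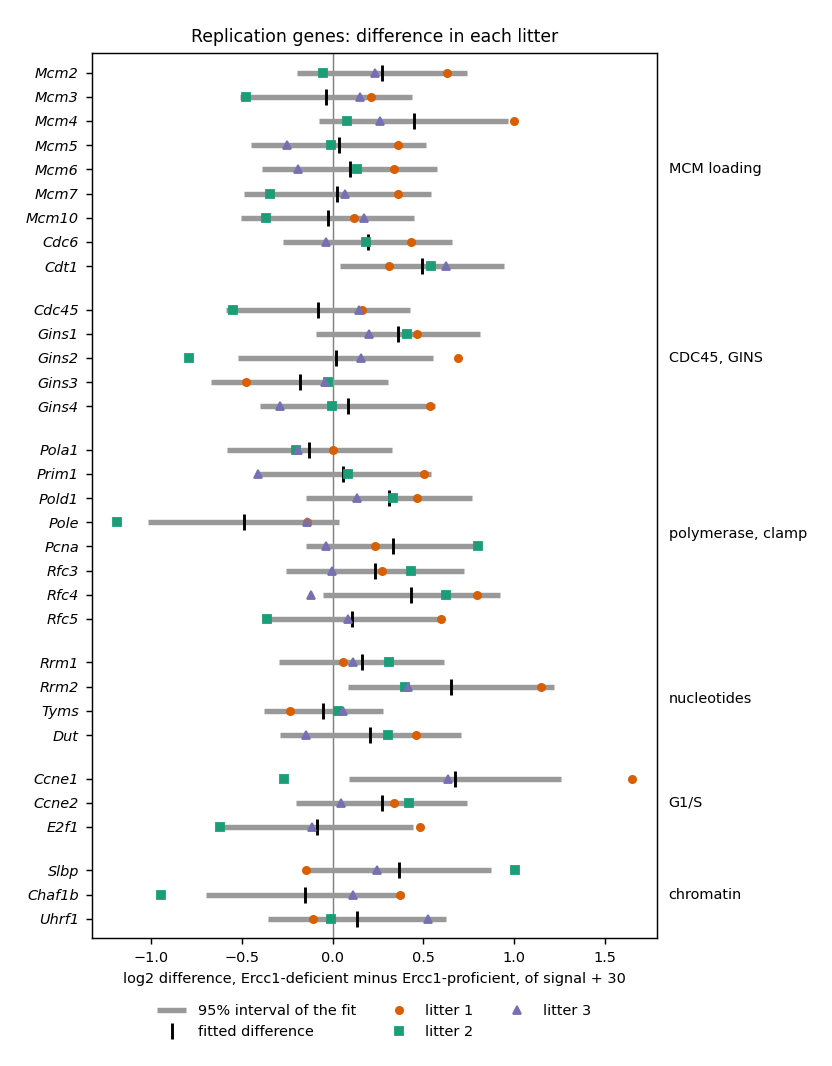
Log2 difference of log2(signal + 30), Ercc1-deficient minus Ercc1-proficient, for each of the 32 measured replication genes in each of the 3 litters, with the fitted difference and its 95% confidence interval. The litter 1 points lie furthest from 0 for many genes, 29 of the 32 intervals include 0, and those of Cdt1, Rrm2 and Ccne1 do not.

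The subgroups were set beside each other by their medians. For the 6 ring subunits Mcm2 to Mcm7 the median log2 difference was 0.06, with 0.36, -0.03 and 0.11 in litters 1, 2 and 3, and it turned to -0.04 under quantile normalization. The 4 GINS subunits had a median of 0.05, with 0.50, -0.02 and 0.06 by litter. For the polymerases and primase it was -0.04, with 0.23, -0.06 and -0.17 by litter, and it turned to 0.05 with arrays centred on their medians. In these 3 subgroups the fitted medians lay near 0 and the litter 1 medians above it. With arrays centred on their medians, the litter 2 medians turned to 0.09 for the ring, 0.10 for GINS and 0.06 for the polymerases and primase. The GINS median of litter 2 was also above 0 under quantile normalization, at 0.06. The nucleotide supply genes had a median of 0.18, with 0.26, 0.31 and 0.08 by litter, above 0 in every litter and under both other scalings (0.10 and 0.27). Without the litter block it turned to -0.11 without the Ercc1-proficient array of litter 1 and to -0.057 without the Ercc1-deficient array of litter 2, and was 0.53 without the Ercc1-deficient array of litter 1. This median is that of 4 genes, and Rrm2 and Tyms marked its ends at 0.65 and -0.05. The loading factors with Cdc45 had a median of 0.08, the G1/S regulators 0.27 and the chromatin genes 0.13, which turned to -0.08 under quantile normalization. In every subgroup except nucleotide supply, the litter medians spread more widely than the fitted medians did across subgroups. The subgroups hold 3 to 6 genes each, and genes are not replicates, so no test was made between them.

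**Figure D3:**
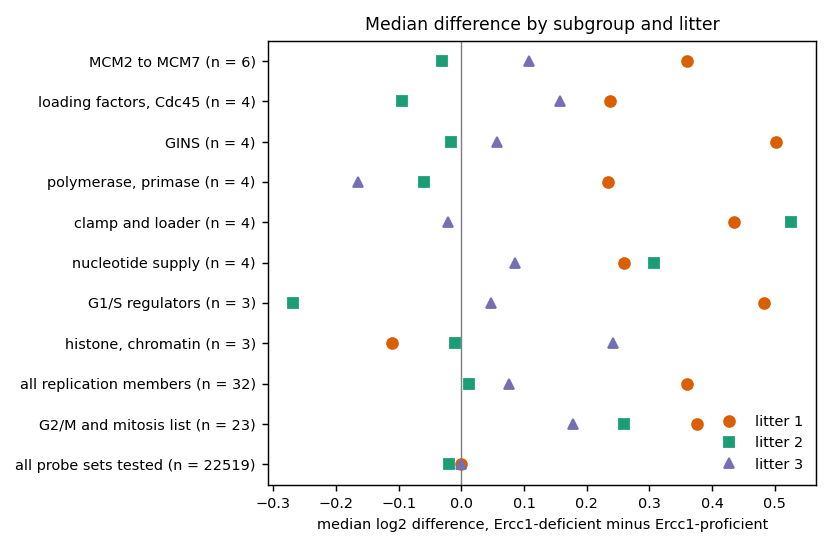
Median log2 difference, Ercc1-deficient minus Ercc1-proficient, of the replication subgroups in each of the 3 litters, with all members, the G2 and mitosis list and all probe sets tested below them. The nucleotide supply median lies above 0 in all 3 litters (0.26, 0.31 and 0.08), whereas the MCM, GINS and polymerase medians are above 0 in litter 1 and between -0.17 and 0.11 in litters 2 and 3.

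Lists of further genes of the same pathways gave a similar picture. They hold 91 genes, of which 87 were measured and tested, and 0 passed for genotype, where 0.786% of all probe sets did. At an unadjusted p under 0.05 there were 12, where 11.4% of all probe sets were, and 1 without the litter block, where 2.59% were, and the smallest adjusted p was 0.062 (limma). By sign, 55 lay above 0 and 32 below, with a median of 0.07, where 46% of all probe sets lay above 0. The smallest p was that of Ccnd1, cyclin D1, which activates Cdk4 and Cdk6 upstream of E2F release. Its signals were 483, 251 and 477 in Ercc1-deficient cells, against 289, 123 and 196 in Ercc1-proficient cells. The Ercc1-deficient sample was the higher one by 0.69, 0.88 and 1.16 in the 3 litters, and the groups overlapped at 1 pair of values. The fit gave 0.91 (SE 0.22; limma, adjusted p = 0.062).

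The other genes named from these lists are those with the smallest p in each. Fen1, which trims Okazaki fragments, had 2978, 3014 and 2294 in Ercc1-deficient cells, against 851, 2905 and 1472 in Ercc1-proficient cells, with a log2 difference of 0.82 (limma, adjusted p = 0.222). Most of it came from litter 1, where the Ercc1-proficient sample was the lowest of the 6. Nasp, a histone chaperone, had 932, 316 and 373 in Ercc1-deficient cells, against 419, 195 and 246 in Ercc1-proficient cells, with 0.76 (limma, adjusted p = 0.143). It was higher in the Ercc1-deficient sample of each litter, with overlap between litters. E2f8, a repressor E2F that is itself made at G1/S, had 690.5, 778 and 679 in Ercc1-deficient cells, against 369.7, 581 and 529 in Ercc1-proficient cells. Its groups did not overlap, and its log2 difference was 0.53 (limma, adjusted p = 0.352). Of the 87 genes tested in these lists, 5 were apart in that direction, where 2.3% of all probe sets were. In the other direction 0 were apart, where 4.89% of all probe sets were.

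Ticrr, needed to fire origins, also did not overlap between the groups, with weak signals of 66.3, 52.2 and 41.4 in Ercc1-deficient cells, against 39.9, 30 and 31.1 in Ercc1-proficient cells, and 0.38 (limma, adjusted p = 0.375). Its other 2 tested probe sets had log2 differences of -0.15 and 0.38. Dbf4, the activator of the Cdc7 kinase, had a log2 difference of 0.38 (limma, adjusted p = 0.534). The values were 0.59 for Rnaseh2c, of the enzyme that removes RNA from DNA, 0.48 for Ppat and 0.54 for Nme1, of purine and nucleotide synthesis, and 0.50 for Asf1b, a histone chaperone. Other tested probe sets gave -0.20 for Nme1, 0.13 for Ppat and 0.40 and 0.43 for Rnaseh2c. By list, 10 of 17 genes of origin recognition and firing lay above 0, 16 of 27 of the fork and of Okazaki fragments, 10 of 16 of nucleotide supply, 11 of 18 of G1/S regulation and 8 of 9 of chromatin replication. The medians of these lists were 0.06, 0.06, 0.07, 0.06 and 0.22.

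Genes of G2 and mitosis were set beside the members as the later part of the cycle. Of 23 measured, 21 lay above 0, where 46% of all probe sets did. The median was 0.28, with litter medians of 0.38, 0.26 and 0.18. For genotype 0 passed (limma), where 0.786% of all probe sets did. At an unadjusted p under 0.05 there were 4, where 11.4% of all probe sets were, and 0 without the litter block, where 2.59% were. The difference between this list and the replication genes was not tested.

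Lists of markers of the sorted cells and of other cell types were read in the same samples, and some held genes that passed for genotype. Of all probe sets tested, 0.786% passed, 11.4% were at an unadjusted p under 0.05 (limma) and 46% lay above 0. Of 14 tested markers of mature granulocytes and macrophages, all lay above 0 and 5 passed as higher in Ercc1-deficient cells. Their median was 1.23, with litter medians of 0.32, 0.53 and 1.80. Their summed signal ran from 6493 to 90820 in Ercc1-deficient cells and from 1065 to 19941 in Ercc1-proficient cells, and Mmp8, Itgam and Cxcr2 were at the floor on all arrays. Of 14 genes of granulocyte-monocyte priming, 13 lay above 0 and 8 passed as higher, with a median of 1.17. Of 13 genes of long-term stem cells, 11 lay below 0 and 5 passed as lower, with a median of -0.76. Of 8 measured genes of LSK identity, 6 lay below 0 and 1 passed as lower, Flt3, with a median of -0.24. Without the litter block 0 genes of these 4 lists passed in limma, with 4, 4, 6 and 1 of them at an unadjusted p under 0.05 in the order given. Of all probe sets, 0 passed in that fit and 2.59% were at an unadjusted p under 0.05. Of 10 measured genes of mature B and T cells, Cd3g, Cd4, Cd8b1 and Cd79a were at the floor on all arrays. Of the other 6, which were tested, 5 lay above 0 and 0 passed (limma; 1 at an unadjusted p under 0.05, 0 without the litter block), with a median of 0.29 and a smallest adjusted p of 0.0586, that of Nkg7. The summed signal of this list ran from 1006 to 1797 in Ercc1-deficient cells and from 605 to 1210 in Ercc1-proficient cells. Of 8 erythroid genes, 0 passed and the median was -0.09, with Hba-a1 and Alas2 at the floor. The part of these cell type markers in the values of the replication genes was not tested.

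Within litter 1, where the members' shift was greatest, the arrays also differed in their control probe sets. The mean log2 signal of the 18 hybridisation spike-in probe sets was 1.19 higher in the Ercc1-deficient array than in the Ercc1-proficient array of litter 1, against 0.12 in litter 2 and 0.18 in litter 3. The log2 difference between the 3′ and 5′ Gapdh probe sets was 4.71 in the Ercc1-deficient array and 3.64 in the Ercc1-proficient array of litter 1, and between 2.30 and 2.99 on the other 4 arrays. The same measure for Actb was 4.97 in the Ercc1-deficient array and 4.05 in the Ercc1-proficient array of litter 1, and between 3.30 and 4.43 on the other 4, so by Actb the litters overlapped. The part of these array measures in the litter 1 values was not tested.

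In most of the replication genes, litter 1 differed from the other litters by more than the genotypes differed. The second comparison set litter 1 (22 weeks, 2 arrays) against the mean of litters 2 and 3 (20 weeks, 4 arrays), with genotype in the fit. Of the 32 members, 17 passed (limma, adjusted p under 0.05), or 53.1%, where 27.3% of all probe sets did. In litter 1, 14 were lower, where 13.2% of all probe sets were, and 3 were higher, where 14% were. The members' median was -0.56, beside -0.00075 over all probe sets, and 25 of 32 were negative. The size of the litter 1 difference had a median of 0.67, that of the genotype difference 0.17, and 27 of the 32 members had the larger litter 1 difference. Under quantile normalization 19 passed, 5 of them higher, and the median was -0.49, while centring on array medians gave 17, 3 of them higher, and -0.59. Age and litter cannot be told apart here, because litter 1 alone had its age. The test used the variation between arrays within litters. With 1 litter set against 2, its p-values do not measure the variation among litters.

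Among the genes that were lower in litter 1 were the 4 GINS subunits, all of those measured. Gins2 differed by -1.45 (SE 0.27; limma, adjusted p = 0.000419), with 151 and 82.1 in litter 1, against signals of 282 to 510.2 in litters 2 and 3. Gins4 differed by -0.92 (SE 0.25; limma, adjusted p = 0.0075), Gins3 by -0.70 and Gins1 by -0.69. The second probe set of Gins2 gave -1.43. Those of Gins3 and Gins1 gave -0.33 and -0.13 and did not pass, with weak signals of at most 65.6 and 66.9. Against litter 2 alone, Gins1 and Gins4 did not pass (limma, adjusted p = 0.344 and 0.247). Gins3 did not pass against litter 3 alone (limma, adjusted p = 0.18). The litter 1 signals of Gins1, 525 and 372, overlapped those of litters 2 and 3, which began at 496. Of the ring and its loaders, Mcm2 differed by -1.20 (SE 0.24; limma, adjusted p = 0.000634), Mcm5 by -1.03, Cdt1 by -1.12 and Cdc6 by -0.66. The other tested probe sets of Mcm2, Mcm5 and Cdt1 had litter 1 differences between -0.92 and -0.18. The value of -0.18 is that of an Mcm5 probe set near the floor, with signals of at most 49.4.

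Ccne1 had the largest difference of all members in litter 1, -1.85 (SE 0.30; limma, adjusted p = 8.21e-05), and its second probe set had -1.15. Its litter 1 signals were 158 in the Ercc1-deficient array and the floor of 30 in the Ercc1-proficient array, against 184 to 572 in litters 2 and 3. Dut differed by -1.39 (SE 0.25; limma, adjusted p = 0.00029) and Rrm1 by -1.10 (SE 0.23; limma, adjusted p = 0.00114). The other probe sets of these genes gave -0.21 for Dut and from -0.11 to 0.20 for Rrm1. Those probe sets lay near the floor, with signals of at most 52.9 for Dut and 51.5 for Rrm1, so their differences were not resolved. Rfc4 and Rfc5 differed by -1.14 and -1.13, and Pold1 by -0.77.

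The 3 genes that were higher in litter 1 were Uhrf1, Slbp and Ccne2. Uhrf1 differed by 1.20 (SE 0.25; limma, adjusted p = 0.00107), with 3740.0 and 4040.1 in litter 1, against 1419 to 2369 in litters 2 and 3. Slbp differed by 0.86 (SE 0.26; limma, adjusted p = 0.0158) and Ccne2 by 0.72 (SE 0.24; limma, adjusted p = 0.0298). Second probe sets of Uhrf1 and Slbp had the opposite sign, -0.16 and -0.33, but that of Uhrf1 lay near the floor, with signals of at most 44.6. Pcna and Mcm4 had positive differences of 0.60 and 0.53 that did not pass. A second Mcm4 probe set gave 0.80 and passed as higher (limma, adjusted p = 0.0147). Rrm2 had 0.05, with -0.67 and -0.40 on its other probe sets. Rfc3, E2f1 and Mcm7 did not pass on the probe set used. Another probe set of each passed as lower, at -1.03, -0.74 and -0.81 (limma, adjusted p = 0.00194, 0.0222 and 0.0201). Litter 1 signals on those of Rfc3 and E2f1 were at or near the floor. On the probe sets used, 3 of the 32 members thus passed as higher, where 14% of all probe sets did, and 14 as lower, where 13.2% did. By promoter, 6 of the 11 members with an E2F word passed, 5 lower and 1 higher, and 7 of the 15 without one, 6 lower and 1 higher.

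**Figure D4:**
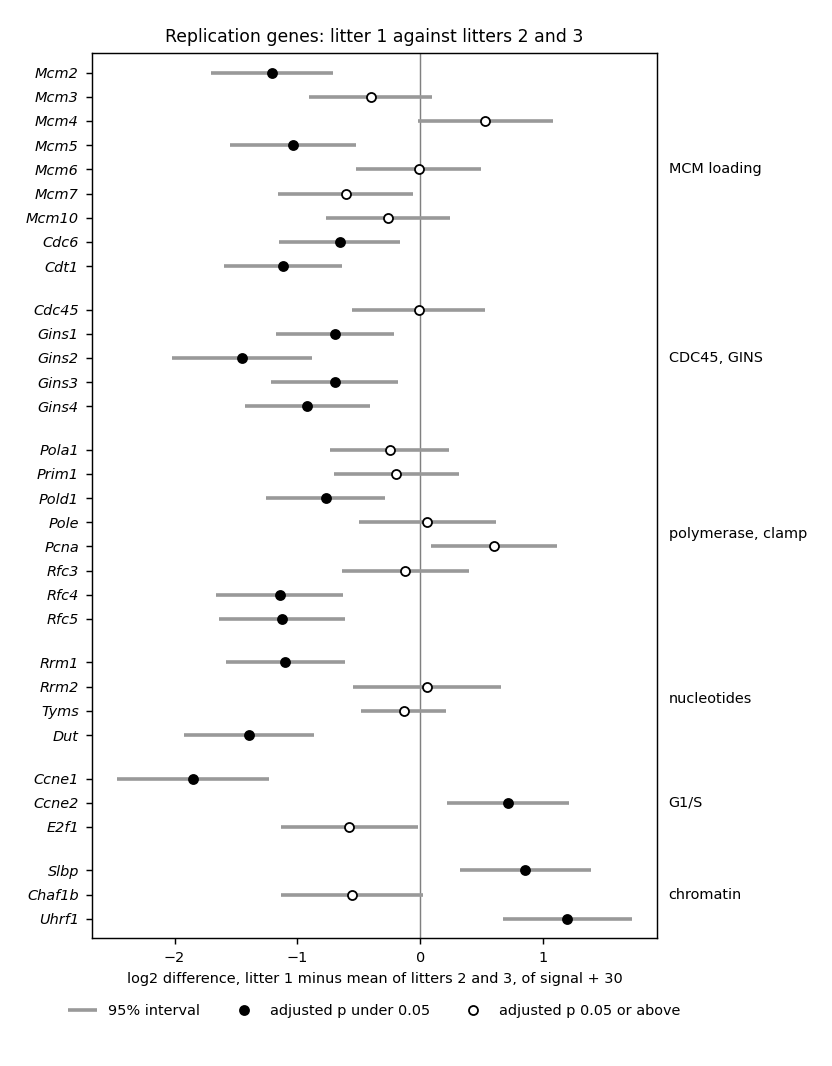
Fitted log2 difference of log2(signal + 30), litter 1 minus the mean of litters 2 and 3, for each of the 32 measured replication genes, with 95% confidence intervals; filled points passed an adjusted p of 0.05. The 17 filled points are 14 genes below 0, among them all 4 GINS subunits, and 3 above 0.

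The litter 1 count depends on few arrays, for the members and for all probe sets alike. Leaving out 1 array, 0 of the 32 members passed without the Ercc1-deficient or the Ercc1-proficient array of litter 1 and without either array of litter 2, with 16, 8, 17 and 13 at an unadjusted p under 0.05. In these 4 fits 0 of the 22519 probe sets passed either, and 5861, 4941, 6472 and 5977 were at an unadjusted p under 0.05. There were 11 without the Ercc1-deficient array of litter 3 and 10 without its Ercc1-proficient array, where 3862 and 3302 of all probe sets passed. Without the filter on mean signal 0 members passed, with 17 at an unadjusted p under 0.05. Of the 45037 probe sets, 3 passed in that fit, with 6842 at an unadjusted p under 0.05. The difference from litter 2 alone passed for 16 members and that from litter 3 alone for 11, where 27.3% and 18.6% of all probe sets did. Between litters 3 and 2, of the same age, 1 member passed, Mcm2, lower in litter 3, where 1.56% of all probe sets did and 0.471% were lower.

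Other measures also set litter 1 apart. The mean log2 signal of 18S ribosomal RNA was 7.26 and 7.21 on the litter 1 arrays, against 9.51 to 11.8 on those of litters 2 and 3. The summed signal of the mature granulocyte and macrophage markers ran from 1065 to 6493 in litter 1 and from 7214 to 90820 in litters 2 and 3, and 9 of its 14 tested markers passed as lower in litter 1, where 13.2% of all probe sets did. Of the priming genes, 9 of 14 passed as lower. The long-term stem cell genes summed to 6029 to 7477 in litter 1 and 2129 to 3685 in litters 2 and 3, and 5 of 13 passed as higher, where 14% of all probe sets did. For LSK identity the sums were 16898 to 17433 in litter 1 and 9630 to 11912 in litters 2 and 3, with 1 of 8 higher. Of the mature B and T cell genes 2 of 6 passed as lower, and of the erythroid genes 4 of 8. Of the 23 genes of G2 and mitosis, 7 passed as higher in litter 1 and 5 as lower. The wider replication lists had 13 of 87 higher, a share near that of all probe sets, and 20 lower. The part of 3′ bias, ribosomal RNA and cell composition in the litter 1 differences was not tested.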

How the data were processed

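The deposited values are signal intensities on a linear scale, made by the authors with MAS5 according to the submitters' processing notes (version not given in the sources used here). A trimmed mean (2% off each end) of 109 to 111 on all 6 arrays shows that each array was scaled, and no signal lies below 30; the scaling target and the origin of this floor are not recorded. Of the probe sets used, 6 carry the suffix x_at and 5 the suffix s_at, which mark sequence shared with other transcripts, so their signal may include those. Amplification in 2 rounds favours 3′ ends.

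Signals were transformed as log2(signal + 30). After the 64 control probe sets were dropped, 22519 of 45037 remained for testing, those whose mean was not below the median. The model in limma 3.58.1 (R 4.3.3, lmFit and eBayes with trend) had group and litter as terms, and p-values were adjusted over all of them by Benjamini-Hochberg, with 0.05 as threshold. The labels name each sample's litter mate, so equal numbers pair the samples. Between litter mates, the deviations from the group mean had correlations over probe sets of 0.77 in litter 1, 0.67 in litter 2 and 0.46 in litter 3. No pair of arrays held identical values. The fit was tested on simulated data with the measured litter effects, alike in both litter mates, and normal noise of the size that the blocked fit estimated. Changes were placed only in the brighter part of the tested probe sets, above their median. The fit recovered 82% of 100 2-fold and 100% of 100 4-fold changes among 22519 probe sets, with 7.14% of its calls false. Without the block it recovered 0% of either. Because these settings assume the block, the recovery does not decide between the fits, nor does it cover weaker genes.

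Probe sets were named by the platform annotation of 2016 (34945 with 1 gene symbol, 932 with several, 9160 with none). All 32 measured members matched a RefSeq gene by Entrez identifier. Signals on all arrays are given for members that differed the same way in all litters by a fitted log2 of at least 0.3 in size, passed either test, were the brightest of their group or went opposite ways by at least 0.5 in 2 litters; 22 qualified and the other 10 are summarised. From each wider list, up to 2 genes of smallest p are named. The members, lists and tests were chosen with earlier results of these data known. Alternatives were no litter block, other scalings, pseudocounts, filters and variance models, probe sets averaged by gene, and arrays or litters left out. Comparisons of litter 1 with litter 2 or 3 alone, and the litter 1 comparison with single arrays left out, were added after seeing the data.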

Additional observations from a re-analysis of the deposited data

Results flagged for a closer look

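In 6 members, the Ercc1-deficient sample of litter 1 lay on one side of its litter mate and those of litters 2 and 3 both lay on the other side. The litter 1 log2 differences were 0.36 for Mcm5, 0.54 for Gins4, 0.48 for E2f1 and 0.00418 for Pola1, with both other litters below 0. They were -0.15 for Slbp and -0.24 for Tyms, with both other litters above 0. Litter 1 is 1 pair of arrays, and the difference between litters in the genotype effect was not tested. The Tyms signals were near the floor, and the Pola1 difference was close to 0.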

How the results depend on the processing

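In limma, 0 members passed for genotype under each of the 18 alternatives tried, with 0 to 5 at an unadjusted p under 0.05. The fit without the litter as a block (no pairing) gave the same log2 differences, 0 members and 0 of 22519 probe sets. The genotype count of 177 became 312 with arrays centred on their medians, 97 with no variance trend, 0 (1825 at an unadjusted p under 0.05) with no filter and 0 to 5 with a litter left out. Over the 22 members named with all signals, 352 of 396 alternative values kept their sign, 44 turned and 0 came to pass (adjusted p from 0.140 to 1). Averaging a gene's probe sets turned Mcm5 to -0.085, Mcm7 to -0.067 and Pold1 to -0.0093, a pseudocount of 100 turned Gins2 to -0.028, and quantile normalization turned Mcm5 to -0.049, Mcm7 to -0.13 and Uhrf1 to -0.079. The cause was not tested.

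Leaving out 1 litter with the block, or 1 array without it, gave medians of -0.15 to 0.25 for all members, -0.23 to 0.28 for the ring subunits, -0.34 to 0.37 for GINS and -0.11 to 0.53 for nucleotide supply. Members whose sign turned in these fits had ranges as follows: Mcm2 (-0.22 to 0.84), Mcm5 (-0.39 to 0.30), Mcm7 (-0.26 to 0.28), Cdc6 (-0.086 to 0.39), Gins2 (-0.63 to 0.50), Gins3 (-0.40 to 0.12), Gins4 (-0.34 to 0.56), Pcna (-0.14 to 0.58), Rfc4 (-0.038 to 0.72), Rfc5 (-0.39 to 0.48), Rrm1 (-0.18 to 0.55), Dut (-0.32 to 0.61), Ccne1 (-0.19 to 1.48), Slbp (-0.21 to 0.78) and Uhrf1 (-0.20 to 0.60). Leaving out 1 array without the block leaves its litter mate unpaired, so differences between litters enter these values.

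The litter 1 count of 6137 probe sets became 3 with no filter and 0 to 3862 with 1 array left out. The 17 members became 0 with no filter, 0 to 11 with 1 array left out and 11 against litter 3 alone, and were 14 to 19 under the other alternatives. Testing all 45037 probe sets adds those at or near the floor.

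What 3 arrays per group can show is limited by their number and by the floor of 30. Tyms, Ticrr and Gins3 lay close to that floor. Litter 1 differed from the others in age, ribosomal RNA and the 3′ to 5′ signal of Gapdh together, whereas the 3′ to 5′ signal of Actb overlapped between litters.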
